A study of Mus musculus with 2 samples.

Results

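Synapses are held together by adhesion proteins that reach across the cleft from the axon terminal to the receiving cell. On the presynaptic side neurexins, latrophilins and netrin-Gs meet partners such as neuroligins, LRRTMs, FLRTs and netrin-G ligands, and secreted cerebellins can bridge neurexins to postsynaptic receptors. AgRP neurons, which drive feeding from the hypothalamus through the peptides encoded by Agrp and Npy, both receive and form such contacts. The genes of these protein families were taken from the platform annotation by their symbols: Nrxn, Nlgn, Lrrtm, Lrfn, Slitrk, Flrt, Cntn, Cntnap, Cadm, Lphn and Cbln genes with a number, Ntng1 and Ntng2, Lrrc4 and its b and c forms, and numbered Igsf genes. This gave 60 genes with 1176 probe sets, out of 22296 genes with 318760 probe sets that carry 1 gene symbol. Of the 60, 58 could be evaluated, beside 16639 evaluated genes in all.

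The data are 2 arrays of sorted AgRP neurons, 1 from mice with a FoxO1 knockout (KO) and 1 from mice heterozygous for it (FoxO1 heterozygous KO), the control here. Both genotypes carried a FoxO1 deletion on a mixed background, cells were collected by FACS, and mice were matched littermates of like age and sex. The sources used here do not give the age, the driver of the deletion, or how many animals were pooled for an array. With 1 array per genotype no difference below has a replicate check, a test or a p-value, and having so few arrays is what limits precision. Foxo1 itself stood at 7.46 on the KO array against 7.98 (difference -0.48, SD 0.53, 8 of 8 probe sets lower), Agrp at 12.44 and 11.97, and Npy at 12.19 and 12.31, so both arrays held the 2 defining peptides. Gpr17, the gene in the series' title, stood at 6.40 against 8.67 (difference -2.10, 4 of 5 probe sets lower). In this and all later pairs of values the KO array comes first.

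All values are log2 probe set values. A gene's level on an array is the median of its probe sets whose mean over both arrays was at least 5.86, its difference is the median of their KO minus heterozygous differences, and the SD is over those probe sets, not over mice. Because these medians are taken separately, the gap between the levels and the difference had opposite signs in 10 of the 58 members. To be called, a gene needed a difference of 1 or more in size (2-fold) and 75% or more of its probe sets sharing that sign. Levels are compared within a gene, since probe sets of different genes do not share a scale. The sums given for marker lists add the gene levels of 1 array on the linear scale, so the brightest genes weigh most in them.

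The 58 synaptic adhesion genes had a median difference near that of all genes, and 2 of them passed the 2-fold rule. Their median difference was -0.15 (quartiles -0.42 and 0.02), against -0.11 over all evaluated genes, a gap of -0.04. Of the 58 members, 42 were below 0, or 72.4%, against 65.2% of all genes, and 32 were below the all-gene median. A total of 44 members lay between -0.5 and 0.5. Cadm4 and Slitrk1 were called lower on the KO array, which is 3.45% of the members against 1.12% of all genes. No member was called higher, where 1.13% of all genes were. After subtraction of the all-gene median, which adds 0.11 to every gene, 1 member was lower (Cadm4) and 2 were higher (Flrt2 at 1.04 and Cntnap5c at 1.01), while over all genes 270 were higher and 127 lower in place of 188 and 186. In sorted cells measured in bulk, fewer cells of a type and less RNA per cell cannot be told apart.

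**Figure D1:**
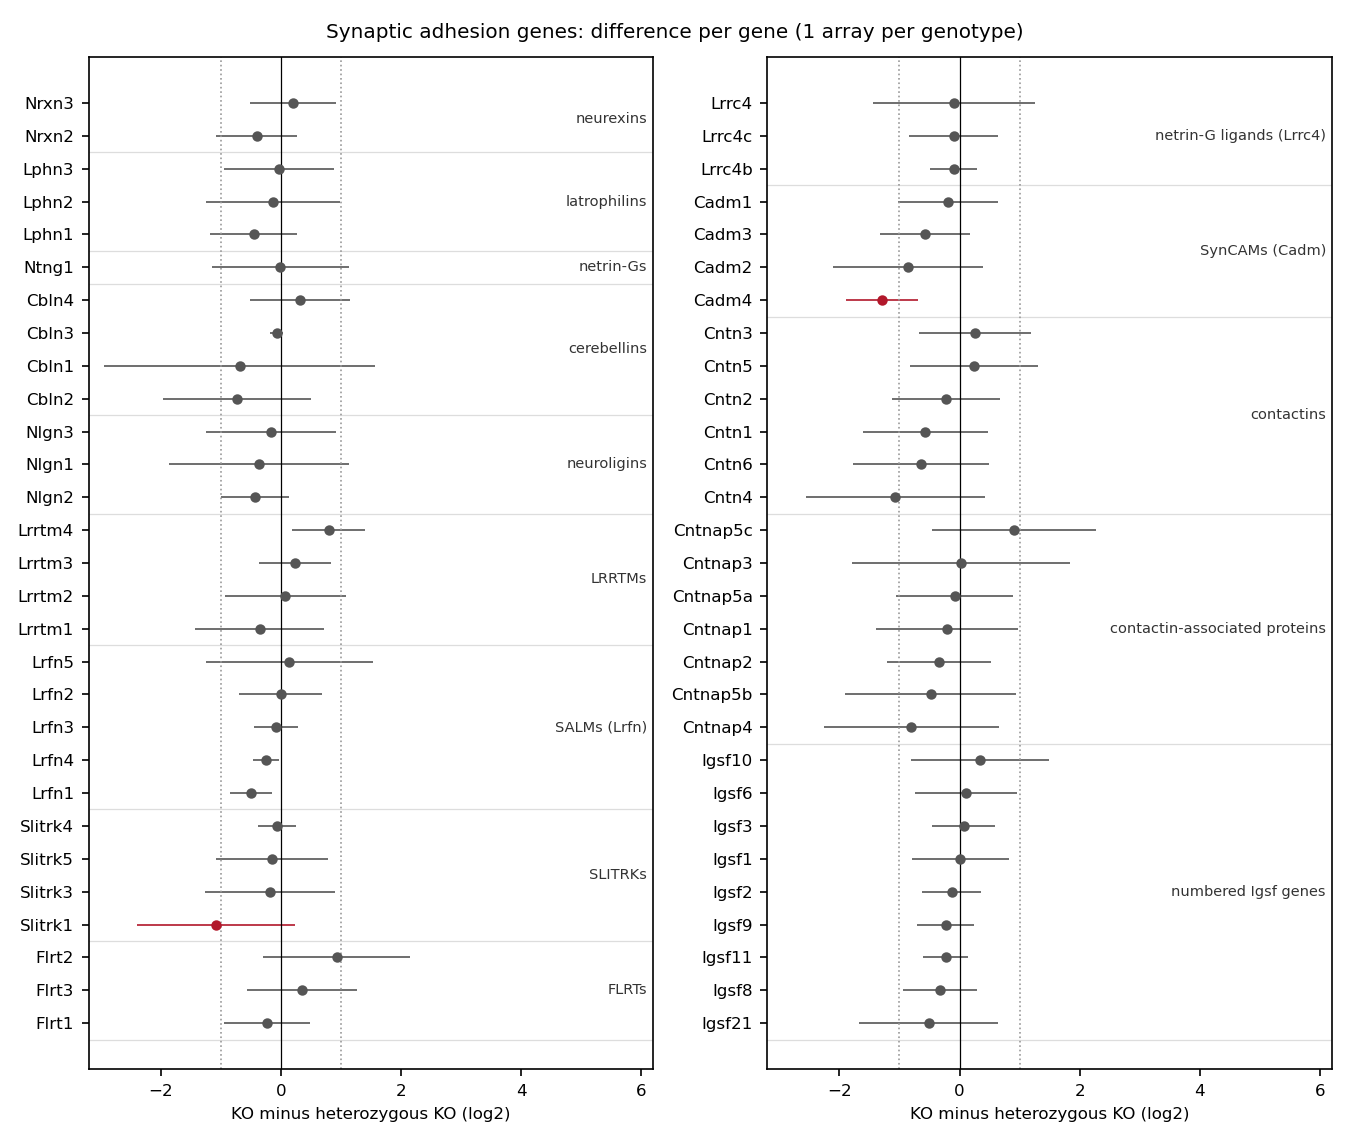
Difference of each of the 58 evaluated synaptic adhesion genes, as log2 of KO over heterozygous KO, grouped by family; bars give the scatter (SD) of each gene's probe sets, dotted lines mark a 2-fold difference and red marks a called gene. Cadm4 at -1.29 and Slitrk1 at -1.09 are the called genes, and most bars cross 0.

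**Figure D2:**
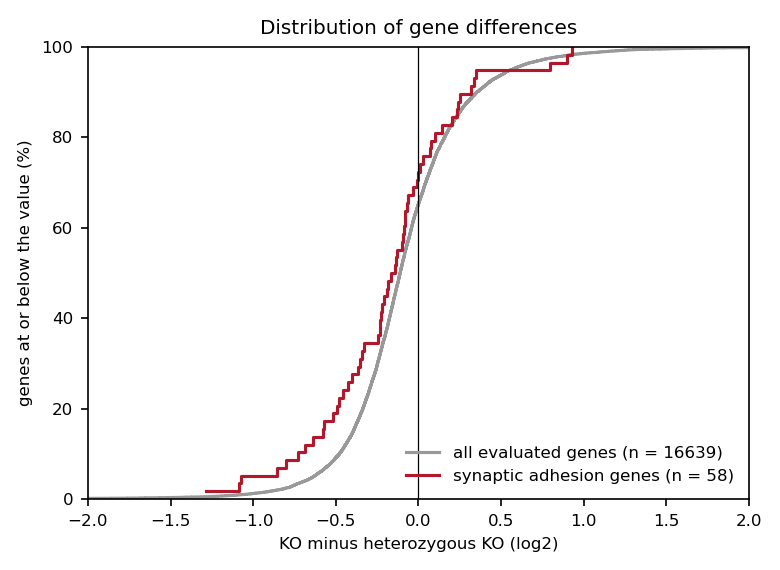
Percentage of genes at or below each difference (log2, KO minus heterozygous KO), for the 58 synaptic adhesion genes and all 16639 evaluated genes; the axis is limited to differences within 2 of 0. The lower quartiles are -0.42 for the members and -0.29 for all genes, and the medians are -0.15 and -0.11. Below the lowest member, Cadm4 at -1.29, only the curve of all genes is above 0.

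Smaller differences were counted too. With a 1.5-fold size and the same share of agreeing probe sets, Cadm4, Slitrk1, Cadm2 and Cbln2 were lower, or 6.90% of the members against 4.9% of all genes. Lrrtm4 was the 1 member higher, or 1.72% against 3.28%. At least 75% of the probe sets were lower in 18 members (31.0%, against 23.3% of all genes) and higher in 3 members (5.17%, against 9.56%). Scatter among the probe sets of a gene, as the SD, had a median of 0.92 over the members and 0.68 over all genes. Of the members' 854 probe sets, 47 were at least 4-fold lower on the KO array, or 5.50%, against 2.64% of the probe sets of all evaluated genes. At least 4-fold higher were 23, or 2.69%, against 2.6%. On the dimmer array 25 of the 47 and 18 of the 23 were under the floor. Among the 752 that reached the floor on both arrays 22 were lower (2.93%, against 1.48% of all) and 5 higher (0.665%, against 1.3%), a count made after seeing the data. The 47 lay in 22 members and the 23 in 14 members, and 6 members had both kinds. The like shares over all genes are not given here. Members also had more probe sets per gene, with a median of 11.5 against 10 over all genes. Probe sets of 1 gene share its transcript and are not replicates.

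Cadm genes encode SynCAMs (also called nectin-like molecules), immunoglobulin proteins that bind each other across synapses and along axons. All 4 were below 0, with a family median of -0.72. Cadm4, which glial cells that wrap axons use to contact the axon, stood at 7.58 against 8.88. Its difference of -1.29 (SD 0.60, n = 8 probe sets) is 2.44-fold lower, and all 8 probe sets were lower, from 6.19 against 8.73 for the largest to 8.45 against 9.03 for the smallest. It was the 1 member in which every probe set was lower. Its ninth probe set, under the floor, was near equal on both arrays at 5.61 and 5.63. Mature oligodendrocyte markers were also lower, with summed linear levels of 2055 and 5232, and their part in the Cadm4 value was not tested.

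Cadm2 stood at 6.73 against 8.18, which is -0.86 as a difference (SD 1.26), and 9 of 11 probe sets were lower. Its probe sets ran from 4.92 against 8.18 to 9.84 against 9.55, so the brightest of them did not share the gap. Cadm3, a neuronal partner of Cadm4 along axons, stood at 8.37 against 8.78 with a difference of -0.58 (SD 0.75, 16 of 21 lower). Cadm1, the family's best studied organiser of synapses, stood at 9.99 against 9.95, with a difference of -0.19 (SD 0.83, 12 of 17 lower). With no floor Cadm2 was at -1.17 and passed the rule, and with the floor on each array it was at -0.46. Thus Cadm4 passed the rule, Cadm2 did so with no floor, Cadm3 was lower in most probe sets without passing it, and Cadm1 had nearly equal levels on the arrays.

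SLITRKs are leucine-rich repeat proteins that bind presynaptic receptor tyrosine phosphatases. Slitrk1 stood at 7.19 against 8.31, for a difference of -1.09 (SD 1.31) with 6 of 7 probe sets lower, or 2.12-fold lower. The probe sets were unequal. A bright one differed little, at 11.06 against 11.38, while 2 others stood at 5.28 against 8.29 and 4.95 against 8.31, both under the floor on the KO array. Where both arrays had to reach the floor, 5 probe sets were left and the difference was -0.90, which did not pass, and with the all-gene median subtracted it was -0.98. The other evaluated SLITRKs were closer to 0: Slitrk3 at -0.19, Slitrk5 at -0.14 and Slitrk4 at -0.06 (7.37 against 8.03). Slitrk2 and Slitrk6 had 1 probe set each above the floor and were not evaluated. The Slitrk2 one stood at 5.88 against 8.32 and the Slitrk6 one at 5.88 against 5.91.

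The promoters of the 2 called genes are shown because FoxO1 binds DNA at a core motif, GTAAACA, which was searched in the members' promoters. The sequences are RefSeq windows on build GRCm38.p6, from 250 bases before to 50 bases after the gene start, with the bases from the start onwards in capitals. Cadm4 lies on the plus strand at chr7:24481773-24482072 and Slitrk1 on the minus strand at chr14:108914190-108914489.
Cadm4: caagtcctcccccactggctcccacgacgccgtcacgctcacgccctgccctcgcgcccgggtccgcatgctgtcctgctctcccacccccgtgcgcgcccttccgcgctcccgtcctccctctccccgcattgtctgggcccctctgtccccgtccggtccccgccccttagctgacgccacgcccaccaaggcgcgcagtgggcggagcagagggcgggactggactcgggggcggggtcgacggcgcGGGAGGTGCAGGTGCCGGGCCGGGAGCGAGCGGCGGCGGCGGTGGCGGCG
Slitrk1: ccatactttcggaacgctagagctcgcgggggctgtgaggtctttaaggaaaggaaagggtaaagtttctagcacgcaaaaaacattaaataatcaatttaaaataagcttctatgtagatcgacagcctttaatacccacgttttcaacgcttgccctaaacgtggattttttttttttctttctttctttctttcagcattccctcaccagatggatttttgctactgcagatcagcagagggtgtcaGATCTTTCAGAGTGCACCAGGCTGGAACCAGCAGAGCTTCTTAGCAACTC

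The Cadm4 window was 77.0% G and C with 40 CpG dinucleotides, and the Slitrk1 window 42.3% with 9, so the promoters of the called genes differ in base composition. Of the members, 46 matched the promoter table, with 60 windows and a median of 12.5 CpG dinucleotides, against 7 over all 32851 windows. GTAAACA or its reverse complement TGTTTAC was in 0 of the 60 windows, and in 3.65% of all windows (1199). No match says only that these letters are not in these windows.

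**Figure D3:**
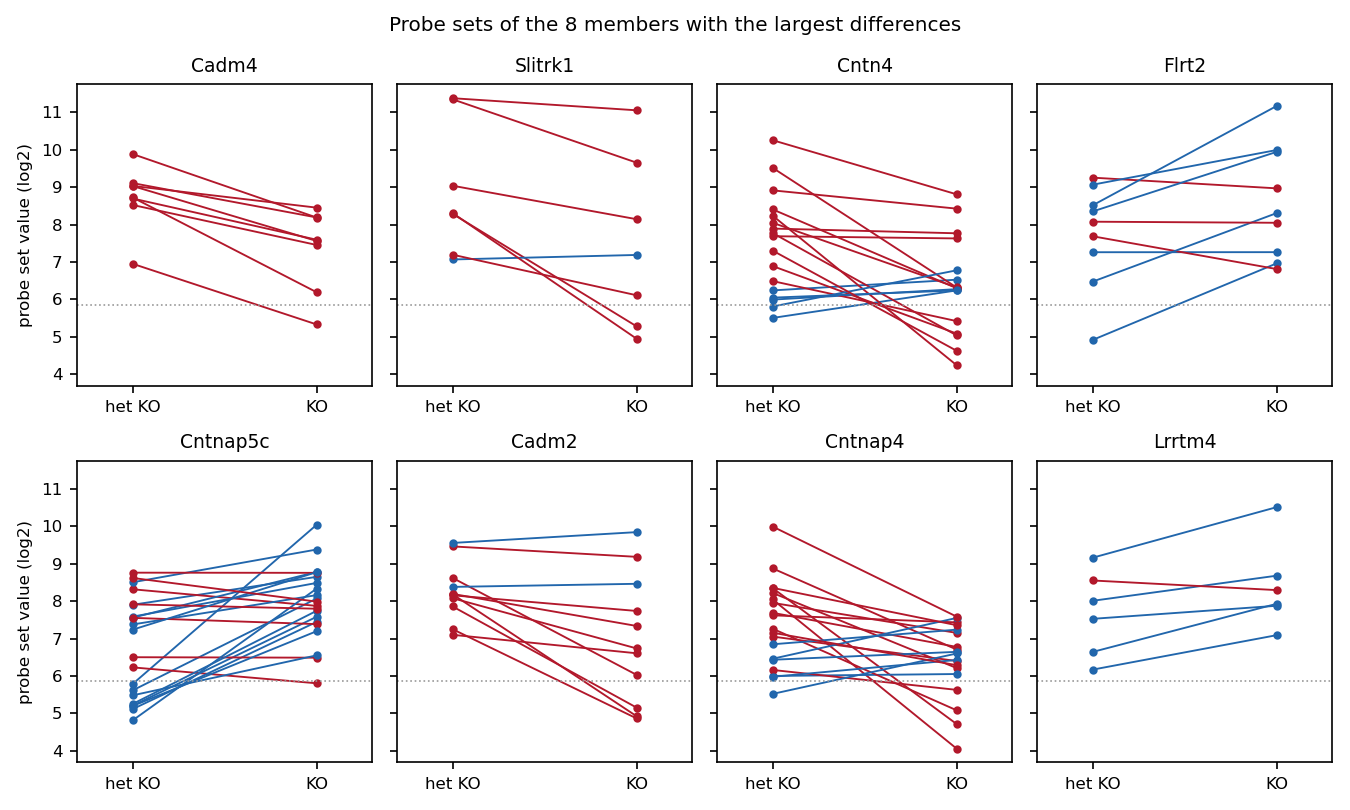
Values of each probe set above the floor (log2) on the heterozygous KO and KO arrays, for the 8 members with the largest differences; each line joins a probe set, red where lower and blue where higher on the KO array, and the dotted line is the floor of 5.86. All 8 Cadm4 lines fall, while the lines of Cntn4 and Cntnap4 run both ways.

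Neurexins are presynaptic receptors with a very large number of splice forms. Nrxn2 stood at 8.26 against 8.62, a difference of -0.40 (SD 0.67), and 41 of its 45 probe sets were lower. Nrxn3 stood at 9.60 against 9.41, which gave 0.20 (SD 0.72), with 18 of 31 probe sets higher. Most Nrxn2 probe sets thus shared a sign, and those of Nrxn3 were mixed. The Nrxn2 probe sets were unequal in size, from -2.80 to 1.11, and 2 were at least 4-fold lower. Latrophilins, G protein-coupled receptors that bind teneurins and FLRTs, were all below 0, though Lphn3 lay above the all-gene median. Lphn1 was at -0.46 (8.66 against 9.20, SD 0.72, 22 of 27 lower), Lphn2 at -0.13 (SD 1.12) and Lphn3 at -0.03 (7.97 against 8.41, SD 0.91, 22 of 41 lower). Ntng1, a lipid-anchored presynaptic ligand of the netrin-G family, stood at 6.94 against 7.32 with 6 of its 12 probe sets lower and a difference of -0.01. It was at -1.25 over the 5 probe sets above the 75th percentile of the mean, which did not pass the rule.

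Cerebellins are secreted proteins of the C1q family. Cbln1, which links neurexins to delta-type glutamate receptors, stood at 6.39 against 8.30, with a difference of -0.69. Its SD of 2.25 over 7 probe sets was the widest among the members: 3 probe sets stood at 6.98 against 11.64, 5.61 against 9.43 and 6.13 against 9.44, while 2 others were higher on the KO array, at 8.84 against 7.97 and 6.39 against 5.71. Cbln2 stood at 6.36 against 7.22 (difference -0.73, SD 1.23, 3 of 4 probe sets lower) and at -0.20 with no floor. Cbln4 stood at 9.88 against 8.77, with a difference of 0.32 (SD 0.84, 12 of 19 higher), and Cbln3 was level at -0.07 (SD 0.11). With the floor at the 75th percentile Cbln1 was at -3.30 and passed the rule, and with no floor it was at -0.59. Cbln2 was at -0.31 with the floor on each array. The family therefore held probe sets that differed by over 4-fold next to genes that hardly differed.

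Neuroligins are postsynaptic partners of neurexins. Nlgn1, found mainly at excitatory synapses, stood at 7.44 against 7.87 with a difference of -0.37 (SD 1.5, 13 of 17 probe sets lower). A single Nlgn1 probe set stood at 4.32 against 9.41 and another at 7.01 against 10.39, while 4 were higher on the KO array. Nlgn2, the form of inhibitory synapses, stood at 8.31 against 8.80 with a difference of -0.43 (SD 0.57, 11 of 15 lower). Nlgn3 had a difference of -0.16 (SD 1.08) with levels of 8.86 and 8.61. The differences of Nlgn1 and Nlgn2 were thus alike in size, and the probe sets of Nlgn1 scattered more widely.

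LRRTMs, leucine-rich repeat proteins of excitatory synapses, were above 0 in 3 of 4 genes. Lrrtm4, which binds presynaptic heparan sulphate proteoglycans, was at 0.80 (8.11 against 7.77, SD 0.61), with 5 of 6 probe sets higher, the largest at 10.51 against 9.16. Lrrtm3 was at 0.23 (10.03 against 10.14, 7 of 8 higher). Lrrtm2 was at 0.07 with 2 of 4 probe sets higher, and at -0.26 with the floor on each array. Lrrtm1 ran the other way at -0.35 (6.95 against 6.67, SD 1.07, 5 of 8 lower), with its levels in the opposite order. FLRTs, ligands of latrophilins and Unc5 receptors, had a family median of 0.35. Flrt2 stood at 8.31 against 8.08 with 6 of 9 probe sets higher and a difference of 0.93 (SD 1.22). A bright Flrt2 probe set stood at 11.17 against 8.51, while with no floor the gene was at 0.0016 and with the floor on each array at 0.46. Over the 6 probe sets above the 75th percentile of the mean Flrt2 was at 1.26, which did not pass the rule. Flrt3 was at 0.35 (SD 0.92, 9 of 13 higher) and Flrt1 at -0.23 (8.89 against 8.85, 2 of 3 lower).

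The Lrfn genes encode SALMs, postsynaptic leucine-rich proteins, some of which associate with scaffolds. Lrfn1 stood at 6.64 against 6.72, with a difference of -0.49 (SD 0.35, 4 of 5 probe sets lower), and Lrfn4 was at -0.24 (SD 0.22, 4 of 5 lower). Lrfn3 was at -0.08 with 6 of 7 lower, and Lrfn2 had a difference of -0.0016, with levels of 8.41 and 8.82 over 3 probe sets. Lrfn5 stood at 7.81 against 7.0 with a difference of 0.14 (SD 1.39, 7 of 13 higher). The netrin-G ligands lay together near 0, with Lrrc4 at -0.09 (7.03 against 7.78), Lrrc4c at -0.10 and Lrrc4b at -0.10 (8.65 against 8.99). Lrrc4 had 7 probe sets higher and 7 lower (SD 1.35), and over the 5 probe sets above the 75th percentile of the mean it stood at -1.16 and passed the rule.

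Contactins are lipid-anchored immunoglobulin proteins, and the contactin-associated proteins of the Caspr family join them at the axon membrane. Cntn4, a contactin of developing axons, stood at 6.30 against 7.69. Its difference of -1.07 (SD 1.49) reached the size of the rule, but 12 of 17 probe sets were lower, or 70.6%, so it was not called. The probe sets ran from 4.24 against 8.24 to 6.78 against 5.81, and over all 40 Cntn4 probe sets the difference was -0.50, and over the 10 that reached the floor on both arrays it was -0.31. Cntn1, which neurons and oligodendrocyte lineage cells make, stood at 9.33 against 10.12 (difference -0.57, SD 1.04, 24 of 30 lower). Cntn6 was at -0.64 (6 of 10 lower), or 0.15 with the floor on each array, and Cntn2, of the axon membrane beside the nodes, at -0.22 (22 of 32 lower). Cntn3 stood at 7.27 against 6.90 (difference 0.25) and Cntn5 at 7.18 against 6.53 (difference 0.24), both with mixed probe sets.

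Cntnap5c and Cntnap4 were the ends of the Caspr family. Cntnap5c stood at 7.99 against 7.24 with 14 of 21 probe sets higher and a difference of 0.90 (SD 1.37), and 7 of these probe sets were at least 4-fold higher. All 7 were under the floor on the heterozygous array, as at 10.04 against 5.78 for the largest, and over the 12 probe sets that reached the floor on both arrays the difference was 0.37. Cntnap4 stood at 6.60 against 7.26 with a difference of -0.80 (SD 1.45, 13 of 19 lower), and 6 probe sets were at least 4-fold lower, as at 4.05 against 8.05. Over all 33 Cntnap4 probe sets the difference was -0.30. With the floor on each array Cntnap4 was at -0.73, and with the floor at the 75th percentile at -0.999. Its paralog Cntnap5b was at -0.48 (SD 1.43) and Cntnap5a at -0.08, or -0.42 with the floor on each array. Cntnap2, which gathers potassium channels beside the nodes, was at -0.34 (8.57 against 8.37, 20 of 30 lower). Cntnap1, the Caspr of the junction with myelin, was at -0.21 (7.23 against 8.0, SD 1.19, 20 of 31 lower), and Cntnap3 at 0.03 (SD 1.81).

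The numbered Igsf genes share a name, not a synaptic role. Igsf21, which binds a neurexin at inhibitory synapses, was lowest at -0.52 (7.07 against 7.83, SD 1.15, 8 of 10 probe sets lower), and at -0.19 over its 6 brightest probe sets, those above the 75th percentile. Igsf8, a partner of tetraspanins, was at -0.33 with 10 of 12 lower. Igsf11, a synaptic adhesion protein, was at -0.23 with 6 of 7 lower, and Igsf9, which acts in dendrites and inhibitory synapses, at -0.23 with 21 of 31 lower. Igsf1, known from the pituitary and hypothalamus, stood at 9.56 against 9.45 with a difference of 0.01 over 29 probe sets. Igsf2 (now Cd101) and Igsf6, genes of immune cells, were at -0.13 and 0.10, Igsf3 was at 0.07 and Igsf10 was highest at 0.34 (7.81 against 7.15, SD 1.15, 9 of 15 higher), and at 0.11 with no floor or either stricter floor. None of the 9 passed the rule.

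Binding partners of these proteins were counted from lists that leave out the members themselves. Among intracellular scaffolds 26 of 29 genes were evaluated, with a median of -0.19 and 18 below 0. Apba2, an adaptor of the Mint family, was called lower at -1.04 (7.01 against 7.87, SD 0.72), with all 16 probe sets lower. Cask, the kinase-like scaffold of neurexins and SynCAMs, was at -0.75 (7.76 against 8.56, 26 of 32 lower). Lin7c was highest at 0.36. Of 42 evaluated trans-synaptic ligands and receptors 36 were below 0, with a median of -0.23 and none called. Odz1, a teneurin ligand of latrophilins, was lowest at -0.74 (25 of 30 lower). Ptprd, a receptor phosphatase that binds SLITRKs, was at -0.69 (8.50 against 8.99, 53 of 70 lower), and Lgi1 was highest at 0.88 (8.85 against 7.99, 10 of 14 higher). The 11 evaluated genes of the L1 and NCAM families had a median of -0.18 with 9 below 0, from Ntm at -0.84 to Negr1 at 0.41, and none called. These 3 medians stand beside -0.11 over all genes, of which 65.2% were below 0 and 1.12% were called lower.

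Markers of other cells differed on the same arrays, where 65.2% of all genes were below 0 and 1.12% were called lower. All 12 evaluated mature oligodendrocyte genes were below 0, and 7 were called lower, with Ugt8a at -2.98, Mag at -2.12, Cnp at -2.10 and Trf at -1.52, and Ermn highest at -0.42. Their levels, summed on the linear scale, came to 2055 against 5232. All 12 oligodendrocyte precursor genes were below 0 and 4 were called lower, with Pdgfra at -2.41, Bcas1 at -1.91, Enpp6 at -1.78 and Lhfpl3 at -1.59, and Cspg5, above the all-gene median, highest at -0.04 (sums 2163 and 4151). Among 13 genes of other hypothalamic neurons 10 were below 0 and 3 were called lower, which were Slc17a6 at -4.29, Npvf at -2.36 and Oxt at -1.01, with Cartpt highest at 0.33 (sums 2967 and 4734). Slc17a6 and Npvf were under the floor on the KO array. RMA values have no 0, and no other marker level was under the floor. The part of these cells in the lower values of Slitrk1 and the other members was not tested.

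The other marker lists had no called gene, and their counts below 0 stand beside 65.2% of all genes. Among the 12 genes listed for AgRP neuron identity the median was 0.14 (5 below 0, from Ghsr at -0.60 to Mc3r at 0.52, sums 15833 and 14168). Some genes of that list, such as Gad1, Gad2 and Slc32a1, are not particular to AgRP neurons. The 13 pan-neuronal genes had a median of -0.16 (10 below 0, from Syt1 at -0.97 to Elavl4 at 0.13, sums 10253 and 12027). Astrocyte genes had a median of -0.26 (9 of 12 below 0, Slc1a3 -0.73, Gfap 0.66, sums 3110 and 3553), microglia genes -0.07 (7 of 10, Trem2 -0.30, Aif1 0.50, sums 1574 and 1629) and vessel genes -0.22 (10 of 10, Cdh5 -0.77, Pecam1 -0.05, sums 1106 and 1733). The members' median of -0.15 stood beside -0.16 for the pan-neuronal genes, -0.18 for the L1 and NCAM families and -0.11 over all genes.

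**Figure D4:**
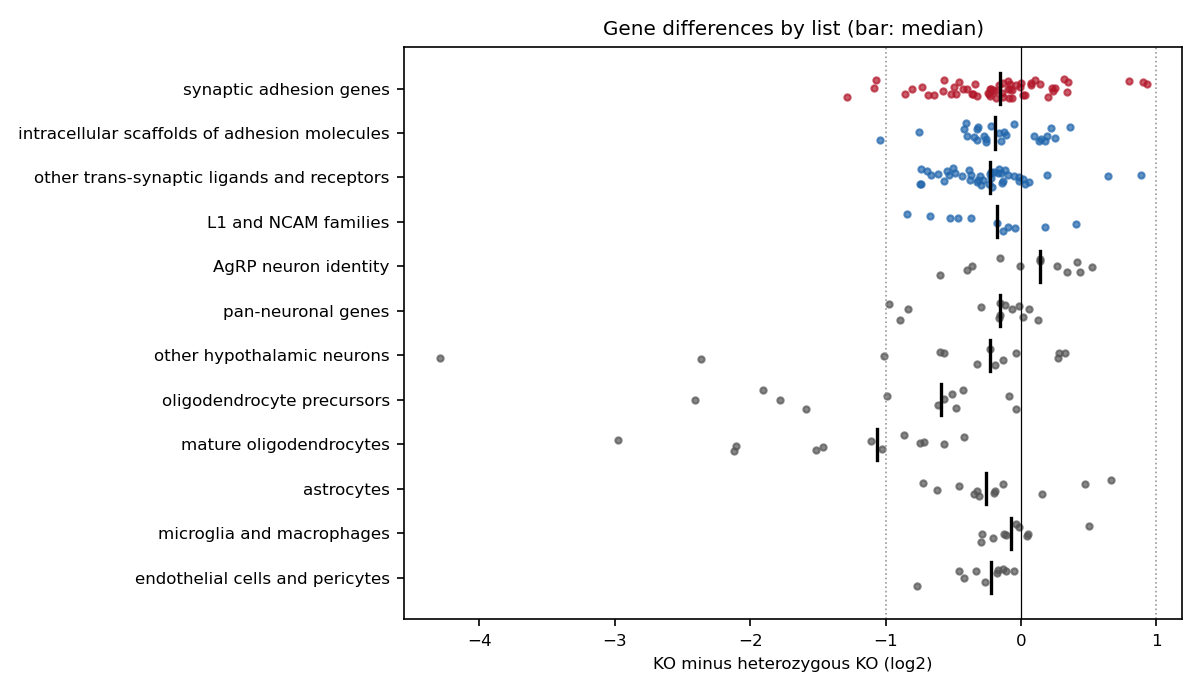
Difference of each gene (log2, KO minus heterozygous KO) in the synaptic adhesion genes (red), 3 lists of binding partners (blue) and 8 lists of cell type markers (grey); black bars are list medians and dotted lines mark a 2-fold difference. The 2 oligodendrocyte lists have medians of -0.59 and -1.07, below the -0.15 of the synaptic adhesion genes.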

How the data were processed

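Per the labels' protocols, RNA was isolated with Trizol and labelled with biotin by a Nugen method. The authors deposited 1 log2 value per probe set and array, made with RMA (background correction, quantile normalisation and probe summary) and Partek, per the submitters' processing notes; the log2 scale was taken from the values, and no version, build or annotation release is given in the sources used here. RMA brings both arrays to 1 distribution (medians 5.85 and 5.85), so a global shift in RNA amount is not visible. Of 1235936 probe sets, 318760 had 1 symbol in the platform annotation, 6684 several and 910492 none; only the first were used. Of the members, 56 symbols are current in RefSeq and 4 are older names (Lphn1, Lphn2, Lphn3 and Igsf2).

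The floor is the median of the mean of both arrays over all probe sets (5.86), and at least 3 probe sets were required. A probe set can pass through 1 bright array. The members, families, lists and rules were chosen with earlier results of these data known. Every member may be named; of each list the highest, the lowest and called genes (at most 4 for markers) were named, and Cask and Ptprd were added after their values were seen. The summary was tested first on simulated data, with differences shuffled among probe sets of like level and known differences of 4-fold or more set in 200 genes. Differences near the 2-fold and 1.5-fold rules were not set in it. Alternatives were other floors, the mean over probe sets, other minimum numbers of probe sets, removal of the trend on level, centring, probe sets with several symbols and other call rules. Values were computed in pandas 2.3.3 and numpy 2.4.6 (Python 3.11.15) and drawn with matplotlib 3.10.9.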

Additional observations from a re-analysis of the deposited data

How the results depend on the processing

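Across 9 alternatives to the gene summary and scaling, Cadm4 passed the 2-fold rule in each, at -1.38 to -1.10. Slitrk1 did not pass with the floor at the 75th percentile (-0.90), the floor on each array (-0.90), the trend on level removed (-0.97) or centring (-0.98). Members called lower numbered 1 with the floor on each array, with the trend removed and with centring, and 4 with the mean over probe sets (Cadm2 and Cbln2 added) and with the 1.5-fold rule. They numbered 3 with no floor (Cadm2 added), with the floor at the 75th percentile (Cadm4, Cbln1 and Lrrc4), with at least 1 probe set (Slitrk2 added) and without the agreement rule (Cntn4 added). The share of all genes called lower moved too. It was 0.704% with the floor on each array, 0.811% with the trend removed and 0.763% with centring. The mean over probe sets gave 1.527% and the 1.5-fold rule 4.898%. No floor gave 0.624%, the floor at the 75th percentile 1.573%, at least 1 probe set 1.603% and no agreement rule 1.244%. Members called higher numbered 2 with the trend removed and with centring (Cntnap5c and Flrt2), and 1 with the 1.5-fold rule (Lrrtm4). In these settings 1.581%, 1.623% and 3.275% of all genes were called higher, in that order. With centring and the 1.5-fold rule together, chosen after seeing the data, 4 of the 58 members were lower and 3 higher. Of all genes 2.843% were lower and 5.151% higher with that rule. The members' median ran from -0.23 to -0.04. Of 27 genes, the called ones and the highest and lowest of each family, 5 uncalled ones changed sign in 12 of 236 values. The other members were not part of that count. Among them, Cntn6 (0.15) and Lrrtm2 (-0.26) changed sign with the floor on each array, and Igsf1 (-0.01) with the floor at the 75th percentile. Centring left 32 of the 58 members below 0 in place of 42, and turned Cbln3, Lrfn2, Lrfn3, Lrrc4c and Cntnap5a positive too. Sign changes of these other members with the mean over probe sets or the trend removed are not given here. With 1 array per genotype, no setting supplies a replicate.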

Other observations

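Some symbols of these families occur in probe sets that name 2 genes and were left out of the values above. Ntng2, a netrin-G that pairs with Lrrc4, shares 22 probe sets with 6530402F18Rik, of which 15 were above the floor. Their levels were 7.12 (KO) and 6.69 (heterozygous KO), with a median difference of -0.15 (SD 0.58, 9 of 15 lower). Igsf5 shares 9 probe sets with Pcp4, of which 5 were above the floor, at 7.55 and 7.59, with a median difference of 0.05 (SD 0.34). Which gene such a probe set reads cannot be told here.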
